A study of Homo sapiens with 5 samples.

Results

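Chemokine-high and chemokine-zero cells are 2 groups of human SW480 tumor cells recovered from zebrafish xenografts at 1 day post injection (dpi), and they were selected on 5 chemokine genes measured in the cells themselves. For each cell the unique molecular identifiers (UMIs, counts of RNA molecules) of CXCL1, CXCL2, CXCL3, CXCL8 and CCL20 were summed and divided by the cell's UMIs on human genes, giving a chemokine score in UMIs per 10000. Within each plate the highest 15% of cells formed the chemokine-high group and the cells without a single chemokine UMI formed the chemokine-zero group. Of 531 cells that passed the filter (more than 2000 genes and under 25% mitochondrial UMIs) among 1152 wells, 79 were chemokine-high and 328 chemokine-zero, and the remaining 124, which held a few such UMIs, were called chemokine-middle. The whole series had 822 passing cells. Because the score chose the groups, the 5 chemokine genes are described below and were left out of every test.

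SW480 is an established colorectal cancer cell line. The study followed its tumors because zebrafish larvae clear most of them within days, and sequenced single cells before and after that clearance. GFP-labeled SW480 cells (lentiviral, sorted) had been injected into larvae at 2 days post fertilization without further treatment, and all groups compared here carry the label. About 100 tumors were pooled and dissociated in a medium that held the kinase inhibitor Y-27632, and single cells were sorted into 384-well plates for SORT-seq. The cells of 1 dpi came on 3 plates, libraries 6, 7 and 8, each taken as 1 replicate. Libraries 6 and 7 shared a flow cell and library 8 was on the other. No source used here says whether the plates came from one pool of tumors, and p-values therefore measure only the spread between plates, which may be technical. The tests below estimate that spread for each gene with help from the other genes. A very small p-value thus does not rest on that gene's 3 plates alone.

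Chemokines are small secreted proteins that draw leukocytes. CXCL1, CXCL2, CXCL3 and CXCL8 act on neutrophils through the receptors CXCR1 and CXCR2, and CCL20 acts on lymphocytes and dendritic cells through CCR6. In epithelial cells their genes are classical targets of NF-kB, a family of transcription factors (RELA, RELB, REL, NFKB1, NFKB2) that inhibitory proteins such as NFKBIA hold in the cytoplasm until a receptor for a cytokine or microbial product, or damage, releases them. NF-kB then also induces its own inhibitors, and AP-1, made of FOS and JUN proteins, often acts beside it on the same genes.

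The promoters of the 5 chemokine genes and of NFKBIA are shown because they hold letters of the kind that NF-kB binds. Each line gives the 150 bases before the RefSeq start (GRCh38.p14), 5′ to 3′ on the gene's strand, with capitals for matches to GGGNNNNNCC, to its narrower form GGAATTTCC and to the AP-1 letters TGANTCA on either strand. The first form contains most matches of the second, and overlapping matches run together.
CXCL1, chr4:73869243-73869392, plus strand: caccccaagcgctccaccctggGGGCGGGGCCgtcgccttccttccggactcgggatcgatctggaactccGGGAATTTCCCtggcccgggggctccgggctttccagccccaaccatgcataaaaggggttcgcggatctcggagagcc
CXCL2, chr4:74099196-74099345, minus strand: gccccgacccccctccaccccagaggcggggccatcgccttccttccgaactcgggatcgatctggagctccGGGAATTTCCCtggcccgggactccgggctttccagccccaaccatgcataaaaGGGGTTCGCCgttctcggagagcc
CXCL3, chr4:74038690-74038839, minus strand: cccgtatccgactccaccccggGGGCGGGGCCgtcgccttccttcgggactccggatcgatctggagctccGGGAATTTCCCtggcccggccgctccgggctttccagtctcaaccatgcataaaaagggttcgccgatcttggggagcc
CXCL8, chr4:73740419-73740568, plus strand: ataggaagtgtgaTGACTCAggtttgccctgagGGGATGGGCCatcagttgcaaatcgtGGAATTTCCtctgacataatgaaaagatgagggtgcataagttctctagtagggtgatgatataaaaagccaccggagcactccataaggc
CCL20, chr2:227813692-227813841, plus strand: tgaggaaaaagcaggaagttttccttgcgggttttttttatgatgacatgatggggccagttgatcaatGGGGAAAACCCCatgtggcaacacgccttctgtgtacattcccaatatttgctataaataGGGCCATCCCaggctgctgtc
NFKBIA, chr14:35404750-35404899, minus strand: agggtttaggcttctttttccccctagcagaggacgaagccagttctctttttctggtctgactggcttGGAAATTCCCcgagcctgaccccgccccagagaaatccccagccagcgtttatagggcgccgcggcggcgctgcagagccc

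The narrow form GGAATTTCC was found in CXCL1, CXCL2, CXCL3, CXCL8 and, on the other strand, NFKBIA, whereas 89 of all 35116 promoters in the table (0.253%) hold it. In CXCL1 it begins 78 bases before the start, in CXCL2 77, in CXCL3 78 and in CXCL8 91 bases before it. CCL20 lacks it but has GGGAAAACCC beginning 80 bases before its start. GGGNNNNNCC alone is common, being present in 43.1% of promoters. CXCL8 was the only one of these 6 stretches with TGANTCA, which 4.17% of promoters hold. Such a match is a description of letters and not of binding. CXCL1, CXCL2 and CXCL3 share long runs of sequence with each other, here and in their transcripts, so reads could be split between them in counting, and their separate values are uncertain.

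Chemokine RNA was concentrated in few cells. The 5 genes had 3661 UMIs in the 531 cells, of which 93% were in the 79 chemokine-high cells and 69.5% in 10 cells. A chemokine UMI was seen in 203 cells (38.2%). Among the chemokine-high cells, 8 held a single chemokine UMI, 20 held 2 to 4 and 51 held 5 or more, and 14 of these held at least 50. All 5 genes were detected together in 12 chemokine-high cells, at least 3 genes in 35 and a single gene in 22. The group therefore runs from cells at the edge of detection to cells in which these 5 genes are abundant.

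**Figure D1:**
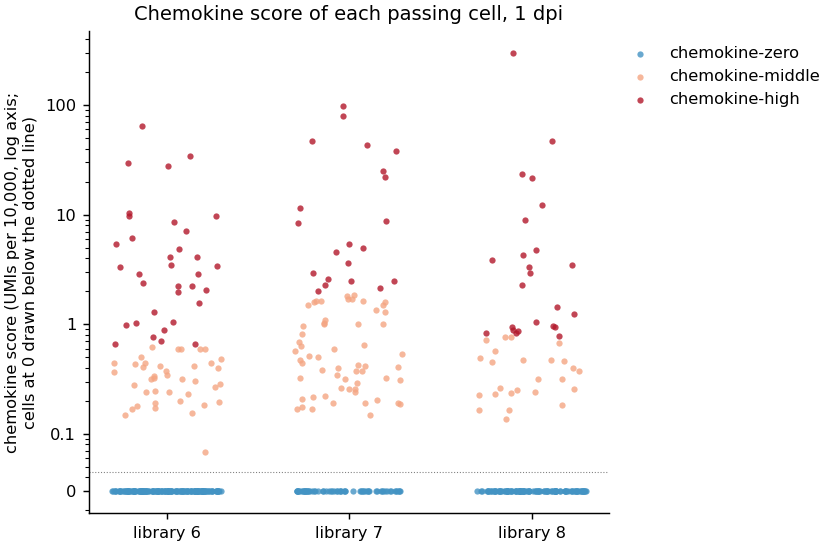
Chemokine score of each of the 531 passing cells by library, in UMIs per 10000 on a log axis, with cells at 0 drawn on a line of their own; each point is 1 cell and colors give the groups. The 79 chemokine-high cells spread over more than 2 powers of 10 on this axis, and the score of the lowest of them lies just above the highest chemokine-middle cell of the same library.

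In library 6, 34 cells were chemokine-high, 40 middle and 153 zero. Library 7 had 21, 59 and 62, and library 8 had 24, 25 and 113. The lowest score inside the high group was 0.654 in library 6, 2.02 in library 7 and 0.787 in library 8, and the highest score outside it was 0.62, 1.85 and 0.764. The step between inside and outside was thus small, and in library 7 the cell just outside held 18 chemokine UMIs in 97190, against 3 in 14883 for the cell just inside. The cell with the most chemokine UMIs held 230 in library 6, 762 in library 7 and 219 in library 8, which was 25.5%, 38% and 44.1% of all chemokine UMIs of the chemokine-high cells of that library. In that cell of library 7, 98.8% of them were CXCL8, whereas those of libraries 6 and 8 had all 5 genes. By score it came second in library 7 (80.1), after a shallower cell with 136 chemokine UMIs in 13743 (99).

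CXCL8, the neutrophil attractant, had the most UMIs of the 5 (1701 in all). It was found in 61.8%, 85.7% and 70.8% of the chemokine-high cells of libraries 6, 7 and 8, at 2.75, 16 and 1.79 UMIs per 10000. The library 7 level was the high one, and 753 of its 1217 CXCL8 UMIs came from the cell named above. CCL20 was found in fewer chemokine-high cells (38.2%, 61.9% and 41.7%) at 3.08, 5.65 and 3.11 UMIs per 10000. CXCL1 was at 1.28, 2.39 and 1.17, CXCL3 at 1.5, 1.88 and 1.33, and CXCL2 at 0.421, 0.488 and 0.996 UMIs per 10000. The genes were met in the same cells: of 53 cells with CCL20, 31 (58.5%) also had CXCL8, which was found in 23% of all passing cells, and 28 (52.8%) had CXCL1, found in 12.1%. Deeper cells have more chance of either gene, so these shares are a description.

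The 2 groups had similar depth in libraries 6 and 7. Median UMIs per cell in chemokine-high and chemokine-zero cells were 28350.5 and 27371 in library 6, 32523 and 33603 in library 7, and 18539.5 and 24538 in library 8. Chemokine-middle cells were deeper throughout (50051, 39352 and 40617). The rule favors this, because the score divides by depth and a single chemokine UMI gives a low score only in a deep cell. The median mitochondrial share was 10.8% against 13.6%, 10.2% against 11.5% and 10.9% in both groups, and UMIs per spike-in molecule were 91.8 against 95.3, 136 against 115 and 32.7 against 55.5. Library 8 thus had less RNA per spike-in in its chemokine-high cells, and the part of these properties in the results below was not tested. The same well number was chemokine-high on at least 2 plates for 10 wells. The number under random placement was not computed, and the part of well position was not tested. Summed over cells, the chemokine-high groups held 997678, 758845 and 592239 UMIs and the chemokine-zero groups 4466438, 2126508 and 3095764. The precision of a gene is set by the smaller, chemokine-high sum.

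The cells of both groups carried the epithelial marker checked. EPCAM was detected in every one of the 531 cells. PTPRC (CD45), which marks leukocytes, had 0 UMIs in the chemokine-high cells and was found in 1 chemokine-zero and 2 chemokine-middle cells. Of 12 leukocyte genes, 8 had a UMI somewhere, and their summed level lay between 34 and 69.6 CPM, counts scaled to a common library size, in chemokine-high and between 17 and 19.1 CPM in chemokine-zero sums. In libraries 6 and 7 most of the chemokine-high sum was 1 gene, ITGAM, the integrin alpha M chain of myeloid cells, at 46.4, 54.9 and 8.1 CPM in chemokine-high and 4.95, 5.39 and 7.1 CPM in chemokine-zero cells of libraries 6, 7 and 8. ITGAM stood apart in libraries 6 and 7 and hardly in library 8, and its ratio of 2.57 ± 0.40 (log2, SE, adjusted p = 8.05e-05) was not called by DESeq2. Of 10 endothelial and fibroblast genes only LUM could be tested, and its call was lost without any one of the libraries.

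Chemokine-high cells were compared with chemokine-zero cells of the same plate by edgeR's quasi-likelihood test on summed counts, with the plate as a block and Benjamini-Hochberg adjusted p-values, over 10135 genes. At an adjusted p under 0.05, 1119 genes (11%) were higher and 984 (9.71%) lower in chemokine-high cells, 20.7% in all, and 3660 genes (36.1%) had sums that did not overlap between the groups. The counts of list members given below are to be read beside these shares. The filter on low counts asked for a minimum level in as many sums as 1 group has. A rare gene could thus enter the test through 1 group alone. Without that filter 974 of 18837 genes were higher and 1249 lower. The median difference over all genes was 0.00 on the log2 scale. Rises were larger than falls: 362 of the 1119 higher genes and 118 of the 984 lower genes differed by more than 1 on that scale. The higher genes were also rarer, with a median level of 45.6 CPM in chemokine-zero cells against 142 CPM for the lower genes. The counts without library 6 were 588 and 428, DESeq2 called 484 and 349 genes, and upper-quartile scaling, which moved the median of all genes to -0.06, gave 899 higher and 1240 lower.

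The 10 largest rises had log2 ratios from 3.16 to 4.03. UBD, a ubiquitin-like protein induced by inflammatory cytokines, was at 25.2, 24.1 and 17.8 CPM in chemokine-high cells and at 3.07, 0.49 and 0 CPM in chemokine-zero cells of libraries 6, 7 and 8 (log2 ratio 4.03 ± 0.53, adjusted p = 1.15e-05). CXCR4, the receptor of the chemokine CXCL12, was at 9.67, 18.7 and 6.48 against 0.943, 0.49 and 0.676 CPM (3.74 ± 0.60, 9.18e-05). Neither gene overlapped between groups, but CXCR4 rested on 28 UMIs in chemokine-high and 7 in chemokine-zero cells. IL17C, an epithelial cytokine that acts on epithelium itself, stood at 25.2, 28.1 and 42.1 against 4.48, 3.43 and 1.69 CPM (3.22 ± 0.40, 5.51e-06). The others among the 10 largest were NFKBIZ, THBS1, ICAM1, CD83, BTG2, NFKBIA and PIK3IP1. Of the 10, only CD83, BTG2 and NFKBIA reached the level that the filter on low counts needs in any chemokine-zero sum. The rest entered the test through the chemokine-high sums alone, so being high in that group was a condition of testing them. Without library 6 the ratio of UBD became 6.19 and that of THBS1, the matrix protein thrombospondin, went from 3.48 to 5.43, fits against chemokine-zero sums near 0 that depend on the prior count.

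Most of the measured inhibitors of NF-kB, and proteins related to them, rose together. NFKBIA, which binds NF-kB dimers, had 267, 798 and 345 CPM in chemokine-high and 42.7, 49.5 and 44.9 CPM in chemokine-zero cells (3.19 ± 0.18, 2.77e-11). The deubiquitinase TNFAIP3 (A20), which shuts off signaling upstream, had 296, 274 and 236 against 30.9, 37.3 and 34.8 CPM (2.98 ± 0.15, 6.58e-12). For both genes every chemokine-high sum was several times the highest chemokine-zero sum, and library 7 was the highest only for NFKBIA. NFKBIE (1.99), the RNase ZC3H12A (1.93), the deubiquitinase CYLD (1.37) and TNIP1 (0.85) were higher as well. So were NFKBIZ (3.61) and BCL3 (2.86), atypical members of the inhibitor family, whose rise is not read here as inhibition. NFKBIB (0.47, adjusted p = 0.0522) and TNIP2 (0.23, 0.558) did not pass the test.

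The subunits followed a divided pattern. The inducible ones, RELB, REL, NFKB2 and NFKB1, were higher by 2.02 ± 0.17, 2.11 ± 0.17, 1.99 ± 0.18 and 1.75 ± 0.16 on the log2 scale, with no overlap between groups. REL, for instance, was at 140.3, 286 and 206 CPM in chemokine-high and 48.6, 46.6 and 43.9 CPM in chemokine-zero cells. RELA, which is mostly regulated as a protein, was at 71.6, 99 and 72.9 against 57.5, 55.9 and 62.2 CPM, with a ratio of 0.46 ± 0.18 that missed the threshold (adjusted p = 0.0663). The difference between RELA and the other subunits was not tested.

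Among the targets, BIRC3, an inhibitor of cell death at the receptor complexes, was at 251, 416 and 215 against 49, 71.1 and 48.3 CPM (2.36 ± 0.14, 3.07e-11). CD83 and ICAM1, surface molecules known from immune contacts, were higher by 3.33 ± 0.28 and 3.38 ± 0.58, and IRF1 and IER3 by 1.85 ± 0.16 and 1.41 ± 0.18. IKBKE (1.31) and BIRC2 (0.61) were called, the first not without library 6 (1.01, adjusted p = 0.179) and the other not without library 7 (0.44, 0.105). SOD2 (-0.16, 0.517) and the protease PLAU (-0.60, 0.374) gave no call, and PLAU had its chemokine-high sum above its chemokine-zero sum in library 7 and below it in libraries 6 and 8. In all, 19 of the 24 tested genes of this list were higher and 0 lower, against 11% and 9.71% of all genes, with a median log2 ratio of 1.89. The list holds 29 genes, all with a UMI. Without the filter on low counts 20 of 29 were higher and 0 lower, with a median of 1.87. The sums of 21 of 24 did not overlap between groups, against 36.1% of all genes. The list's summed level was 3382, 5210 and 3052 CPM in chemokine-high cells and 1084, 1152 and 1228 CPM in chemokine-zero cells.

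**Figure D2:**
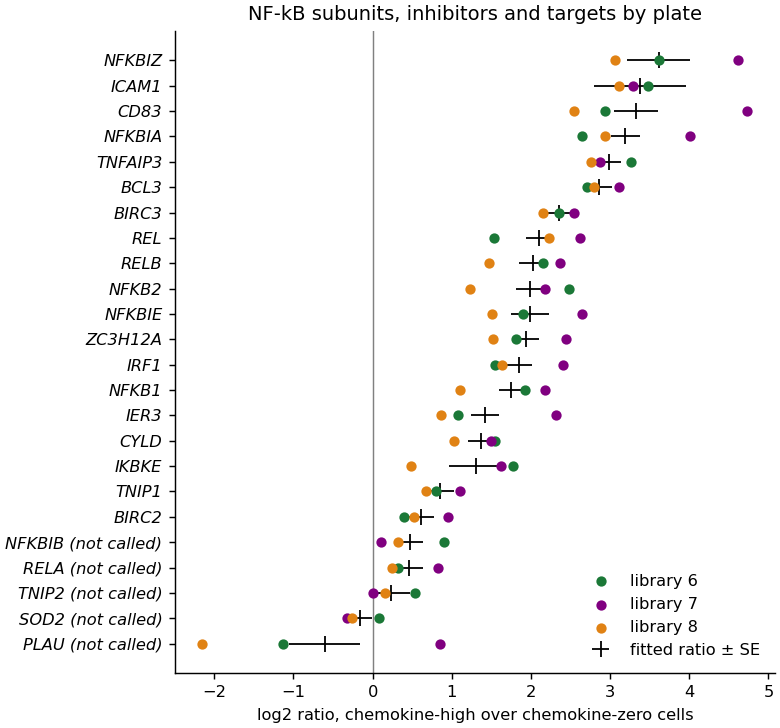
Log2 ratio of chemokine-high to chemokine-zero cells for the 24 tested genes of the NF-kB list; colored points are the ratios within libraries 6, 7 and 8 and black marks the fitted ratio ± SE. From BIRC2 upward all 3 libraries lie above 0. Library 7 lies farthest right for most of the genes, NFKBIA and CD83 among them, and library 6 for others such as TNFAIP3 and NFKB2.

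Other choices of fit, libraries and cells gave these counts for the same list. DESeq2 called 16 of 24 genes higher (median 1.90), and without library 6 it was 17 of 23 (1.72). With CXCL8 alone as the score, 18 of 25 tested genes of the NF-kB list were higher (median 1.14), with CCL20 alone 18 of 25 (1.21), and with CXCL1, CXCL2 and CXCL3 21 of 25 (1.50). Over all genes these scores gave 378 of 10876, 195 of 11121 and 1026 of 10705 higher. Pairing each chemokine-high cell with the chemokine-zero cell nearest in depth gave 17 of 22 (1.82), low-cycling cells 15 of 21 (1.81), and cells thinned to 10000 UMIs before the score 14 of 20 (1.64). Over all genes these choices gave 432 of 8377, 421 of 7936 and 220 of 7456 higher. Without the cell of the highest score of each plate it was 19 of 24 (1.82). In library 7 that is the cell with 136 chemokine UMIs, so the one with 762 stayed in. In these alternatives 0 genes of the list were lower, whereas without library 7 PLAU was (-1.83, adjusted p = 0.017).

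Detection cell by cell was looked at after each cell was thinned to 10000 UMIs, which left out 16 high, 5 middle and 51 zero cells. NFKBIA was detected in 92.1% of 63 chemokine-high, 47.9% of 119 middle and 27.8% of 277 chemokine-zero cells. TNFAIP3 was detected in 76.2%, 33.6% and 23.8%, RELB in 73%, 40.3% and 24.9%, and BCL3 in 54%, 31.9% and 14.4%. BIRC3 was detected in 66.7%, 38.7% and 26%, and CD83 in 42.9%, 17.6% and 9.75%. The rarer NFKBIZ was detected in 15.9%, 2.52% and 1.81%, and ICAM1 in 14.3%, 0.84% and 1.08%. The unthinned shares of NFKBIA were 91.1%, 75.8% and 47.3%. Chemokine-middle cells were therefore between the other groups for these genes except ICAM1, and for NFKBIZ they were close to chemokine-zero cells. A sizeable share of chemokine-zero cells still held NFKBIA RNA. As background, CD14, a gene of myeloid cells, was found in 1.59%, 2.52% and 1.81% of thinned cells.

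**Figure D3:**
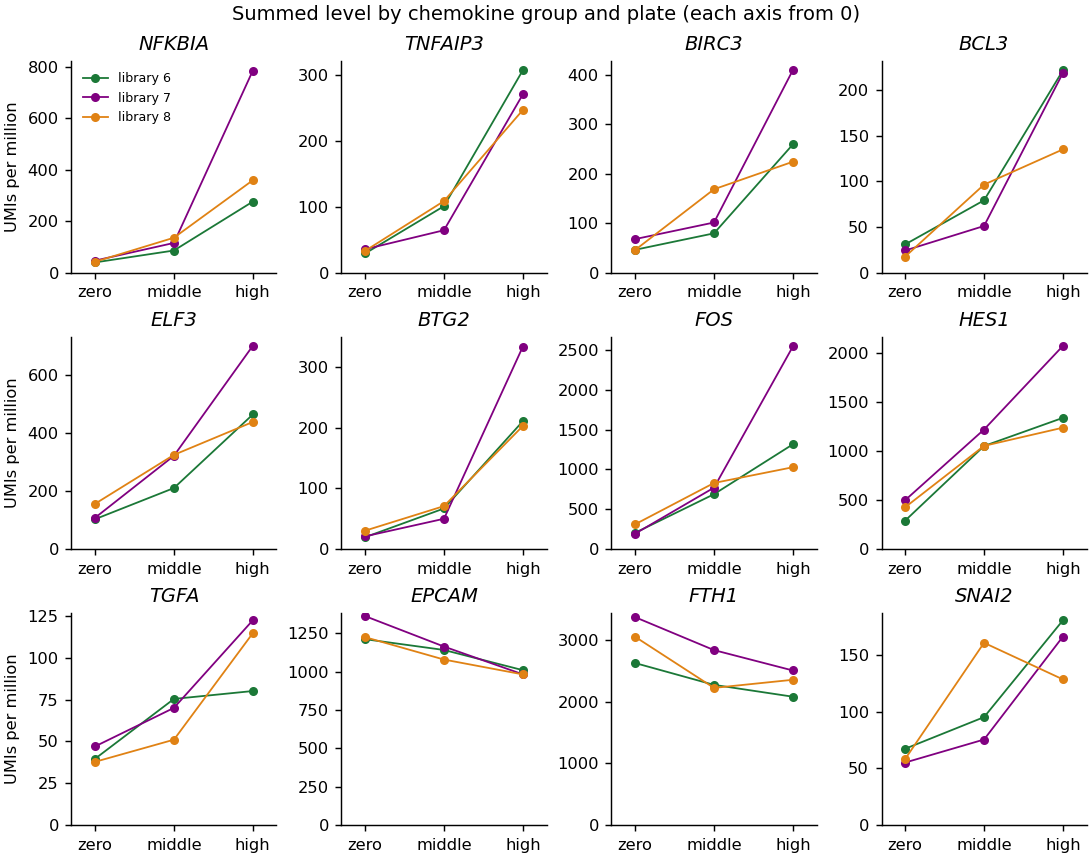
Summed level of 12 genes in CPM, without TMM factors, in chemokine-zero, chemokine-middle and chemokine-high cells, with 1 line per library and each axis from 0. NFKBIA and FOS climb from zero to high in all 3 libraries, while EPCAM and FTH1 are lower in chemokine-high than in chemokine-zero cells.

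Within the chemokine-middle cells no such difference was called. Their cells above and below the middle of the score (20 and 20, 29 and 30, and 12 and 13 cells) were compared over 9184 genes, and 0 genes passed the test with edgeR and 0 with DESeq2. At an unadjusted p under 0.05 there were 574 genes (6.25%), and the smallest adjusted p was 0.0786. NFKBIA differed by 1.00 on the log2 scale (adjusted p = 0.444). A single chemokine UMI was all that 24 of 40, 31 of 59 and 17 of 25 middle cells held. Cells above the middle had a median of 48088.5, 29893 and 26373 UMIs and cells below it 51494, 48573.5 and 43001. Among cells with equal chemokine UMIs the score itself places the shallower ones higher. The part of depth in the comparison was not tested. Without library 6, 47 genes were higher and 4 lower.

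Other secreted signals were few. Of 32 further chemokine and cytokine genes, 25 had a UMI and 5 could be tested. LIF, a cytokine of the IL6 family, was at 35.8, 62.9 and 30.8 against 9.2, 12.7 and 17.6 CPM (1.71 ± 0.28, adjusted p = 0.000134). IL23A and IL32 were also higher, by 1.69 ± 0.25 and 1.35 ± 0.22, and none of these 3 overlapped between groups. CXCL16 (-1.06, adjusted p = 0.121) and MIF (-0.53, 0.486) gave no call. Among the ligands of the EGF receptor family, TGFA was at 77.4, 124 and 110.1 against 41.7, 49 and 39.5 CPM (1.23 ± 0.17, 2.55e-05). AREG was at 80.3, 246 and 126 against 149, 172 and 126 CPM, a ratio of -0.10 ± 0.18, which differs in direction between libraries 6 and 7. HBEGF (0.72, adjusted p = 0.0599) and EREG (0.58, 0.14) were not called either. HBEGF passed without library 6 (1.24, 0.0162) or library 8 (0.89, 0.0205) and turned to -0.03 without library 7, and EREG passed without library 6 (0.98, 0.045).

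Receptors and adaptors that lead to NF-kB were less often called than its targets, a difference that was not tested. Of 26 tested, 10 were higher and 2 lower, with a median of 0.35, and without library 6 the counts were 3 and 1. TICAM1 (TRIF), the adaptor of Toll-like receptors 3 and 4, was at 43.5, 108 and 72.9 against 11.6, 17.2 and 13.5 CPM (2.33 ± 0.23, 1.62e-07), with no overlap. MAP3K14 (NIK), the kinase of the alternative pathway, was higher by 1.32 ± 0.21. IRAK1, a kinase downstream of interleukin 1 and Toll-like receptors, was lower in each library, at 122, 108 and 183 against 228, 241 and 261 CPM (-0.85 ± 0.14, 0.000128). The TNF receptor TNFRSF1B was lower by 0.59 (adjusted p = 0.0194, and 0.216 without library 6). MYD88, RIPK and TRAF genes, IKBKB and TNFRSF1A had ratios between -0.36 and 0.82, and RIPK1, RIPK2, TRAF3 and TRAF5 among them were called higher.

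The immediate early genes, which cells switch on within minutes of a stimulus without new protein synthesis, rose almost as a whole. Of 34 tested, 33 were higher and 0 lower, with a median of 1.46, against 11% higher among all genes. DESeq2 called 25 of 34 higher, and thinned scores gave 25 of 32. CCL20 alone as the score gave 24 of 34, and without library 7 it was 28 of 34 (median 1.07). Their summed level was 13222, 24283 and 12669 CPM in chemokine-high and 4866, 5540 and 5704 CPM in chemokine-zero cells. FOS, an AP-1 subunit, was at 1271, 2588 and 986 against 213, 200 and 324 CPM (2.62 ± 0.21, adjusted p = 8.42e-09). EGR4 had 163, 266 and 206 against 29, 28.9 and 36.2 CPM (2.71 ± 0.17, 5.11e-11), and BTG2, an antiproliferative gene, 203, 339 and 194 against 20.3, 21.6 and 31.4 CPM (3.28 ± 0.19, 2.77e-11). No chemokine-high sum of these 3 genes fell near a chemokine-zero sum, and library 7 was the highest each time. EGR1 (2.40) and NR4A1 (2.43) were similar and MYC rose little (0.46), and only FOSL2 (0.65, adjusted p = 0.0959) was not called. These genes can also be induced by tissue dissociation, which all cells went through, and its part was not tested.

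Feedback genes that follow such signals were higher too. Of 13 genes induced by ERK signaling, 8 were higher and 1 lower. DUSP5, a phosphatase of ERK, was higher by 1.07 ± 0.19. DUSP6 was at 139, 451 and 141 against 89.4, 78.4 and 95.6 CPM (1.27 ± 0.24) and fell to 0.59 without library 7 (adjusted p = 0.0146). Without library 6, 4 of the 13 were higher and without library 7, 5 of 14. Of 10 genes that control AU-rich mRNAs, a class that holds many chemokine and cytokine transcripts, 6 were higher, led by ZC3H12A and by ZFP36 (1.47 ± 0.19), which speeds their decay. The stabilizer ELAVL1 was not called (0.30, adjusted p = 0.195).

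YAP targets and Notch effectors were higher in part. Of 9 tested YAP target genes, 8 were higher, with a median of 1.26: CYR61, a secreted matricellular protein, had 13.5, 26.8 and 14.6 against 1.89, 5.39 and 1.01 CPM (2.79 ± 0.45, 9.2e-05), and the kinase NUAK2 was higher by 2.66 ± 0.30. Without library 6, 5 of 10 were called, and DESeq2 called 4 of 9. HES1, the Notch effector, was at 1292, 2105 and 1187 against 304, 519 and 445 CPM (1.84 ± 0.11, 4e-11). Of 14 Notch genes, 4 were higher and the ligand DLL3 lower (-1.68 ± 0.42). HES5 was at 164, 181 and 112 against 112, 14.2 and 22.6 CPM, so its chemokine-zero sum in library 6 reached the lowest chemokine-high sum, and its ratio of 1.86 became 2.94 without library 6 and 1.18 without library 7. Without library 6, 3 of 12 Notch genes were higher.

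Epithelial genes were divided. ELF3, an epithelial transcription factor, was at 447, 711 and 419 against 108, 112 and 163 CPM (2.03 ± 0.16, adjusted p = 7.1e-09). The junction genes CLDN3 (1.36 ± 0.24), CLDN4 (1.12 ± 0.21) and CDH1 (1.14 ± 0.18) were higher too, and ELF3 did not overlap between groups. CDH1 was at 0.52 in low-cycling cells (adjusted p = 0.222) and at 0.49 with CCL20 alone as the score (0.533). EPCAM was lower, at 975, 998 and 942 against 1277, 1421 and 1282 CPM (-0.45 ± 0.08, 0.000509), as were the keratins KRT8, KRT18 and KRT19 by between 0.43 and 0.49. The calls of KRT18 and KRT19 were lost without library 8 (-0.30 and -0.32, adjusted p = 0.0711 and 0.0692). Of 11 epithelial genes, 4 were thus higher and 4 lower (2 without library 8), against 11% and 9.71% of all genes. Among 9 mesenchymal genes, SNAI2, a repressor of epithelial genes, was at 174, 169 and 123 against 70.7, 57.3 and 60.8 CPM (1.29 ± 0.15, 2.63e-06), and VIM was at 6.77, 21.4 and 9.71 against 27.1, 30.4 and 28.4 CPM (-1.25 ± 0.32, 0.0071, and 0.14 without library 6). In this list 2 genes were higher and 3 lower, and without library 6 or library 8 1 was lower.

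Cell death and cell cycle genes gave smaller differences. Of 17 apoptosis regulators, 5 were higher and 0 lower. The pro-apoptotic BCL2 family members BBC3 (1.34 ± 0.21), BCL2L11 (1.25 ± 0.16) and PMAIP1 (1.20 ± 0.19, and 0.79 without library 7) rose together with the anti-apoptotic MCL1 (0.73 ± 0.15). BBC3, for example, was at 65.8, 57.5 and 71.2 against 26.6, 18.1 and 32.4 CPM. Of 14 p53 targets, 4 were higher, and 2 without library 6. The cell cycle inhibitor CDKN1B was higher (0.88 ± 0.15). Among 40 S phase genes 0 were higher and 4 lower (10% called), near the 9.71% of all genes called lower. Without library 7 it was 1 lower. PCNA, the sliding clamp of DNA replication, was at 179.9, 163 and 134 against 303, 252 and 217 CPM (-0.69 ± 0.13, 0.000349). With zero cells paired by depth its ratio was -0.40 (adjusted p = 0.14) and in low-cycling cells -0.38 (0.388). Among 48 genes of G2 and mitosis 6 were higher and 7 lower, against 11% and 9.71% of all genes. The list's summed level overlapped between groups (2489 to 2766 against 2413 to 2680 CPM).

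Several genes of the secretory pathway and of biosynthesis were lower. Of 18 chaperones and sensors of the endoplasmic reticulum, 0 were higher and 11 lower, with a median of -0.57. HSPA5 (BiP), the main chaperone there, was at 593, 993 and 876 against 1248, 1085 and 1699 CPM (-0.72 ± 0.12, 0.000206). SDF2L1 fell by 1.33 and PDIA3 by 1.16, and none of these 3 overlapped between groups. With zero cells paired by depth SDF2L1 was at -0.61 (adjusted p = 0.338) and PDIA3 at -0.79 (0.081), and with thinned scores they were at -0.70 (0.349) and -0.62 (0.322). Without library 6, 6 of the 18 were lower, and DESeq2 called 5. Of 23 genes of the ATF4 amino acid response, 1 was higher and 8 lower, led by PSAT1, an enzyme of serine synthesis (-0.87 ± 0.11). The one higher gene, DDIT3, lost its call without library 6 (0.57, adjusted p = 0.101) or library 7 (0.23, 0.405). Without library 6, 5 ATF4 genes were lower. In the NRF2 list 3 of 12 were lower, with both ferritin chains among them (FTL -0.77 ± 0.10 and FTH1 -0.48 ± 0.07), and without library 6 it was 2.

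Sets of abundant genes were added after the values had been seen. Of 79 cytosolic ribosomal protein genes, 0 were higher and 70 lower, with a median of -0.42, and their summed level was 107242, 113415 and 117107 CPM in chemokine-high and 148727, 150004 and 156736 CPM in chemokine-zero cells. Many of them have processed copies in the genome, so single genes of this set are uncertain. Of 16 glycolytic enzymes, 0 were higher and 10 lower. GAPDH was at 4329, 4165 and 4154 against 6743, 7136 and 6633 CPM (-0.70 ± 0.06, adjusted p = 1.93e-08) and ENO1 was lower by 0.86. Of 23 mitochondrially encoded genes, 14 were lower and 1 higher. These levels are shares of a cell's UMIs. The directions of the ribosomal and glycolytic sets were the same under TMM, upper-quartile and DESeq2 scaling. The median of all genes was 0.0036, -0.064 and -0.0062 under these, so the directions could hardly have differed. All these scalings are relative and cannot tell a change in shares from a change in RNA per cell.

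Hypoxia, interferon, heat shock, Wnt and antigen presentation genes had no common direction. Their counts stand beside 11% higher and 9.71% lower among all genes. Of 23 hypoxia genes 7 were higher and 5 lower, the latter including LDHA, PGK1 and ALDOA of glycolysis, and without library 6 it was 2 and 3. Of 19 interferon-stimulated genes 3 were higher and 1 lower, with a median of 0.01. That is 21.1% called, near the 20.7% of all genes. IFIH1, a sensor of double-stranded RNA, was the higher one that kept its call without any 1 library (1.16 ± 0.25), while IRF7 and MX2 lost theirs without library 6 or 7 (adjusted p between 0.0956 and 0.228). Of 15 heat shock genes 3 were higher and 4 lower, and without library 6 it was 1 of 16 and 2. Of 17 Wnt genes 3 were higher, led by the receptor EPHB3 (1.50 ± 0.19), and 4 lower, among them the inhibitor DKK1 (-1.21 ± 0.27), and without library 6 it was 1 and 3, without library 7 3 and 2, and without library 8 2 and 2. Of 10 genes of antigen presentation by MHC class I, 1 was higher and 2 lower. HLA-C was among the lower (-0.56 ± 0.13), and without library 6 it was 0 and 1. Of 10 junction and protease genes 2 were higher and 1 lower, against 1 and 0 without library 6 and 4 and 1 without library 8. Of 13 regulators of G1 3 were higher and 1 lower, and without library 6 it was 1 and 0. None of 4 secretory lineage genes was called. TFF1, a trefoil peptide, had the largest ratio (0.83, adjusted p = 0.138), while TFF3 was at 87.1, 106 and 90.7 against 63.2, 77 and 122 CPM, and without library 6 or library 7 1 of 5 was higher.

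The largest falls were in rare genes. All of the 10 but AHNAK2 reached the level that the filter on low counts needs in the chemokine-zero sums alone. Being higher in that group was thus a condition of testing them. METRN, a secreted factor first known from glia, was at 0, 2.68 and 1.62 CPM in chemokine-high and 6.84, 6.86 and 12.2 CPM in chemokine-zero cells (-2.66 ± 0.71, adjusted p = 0.00912). ST6GALNAC4, a sialyltransferase, was at 1.93, 2.68 and 0 against 7.54, 11.3 and 15.2 CPM (-2.64 ± 0.63, 0.00429). These 2 genes had 3 and 4 UMIs in the chemokine-high cells of all plates together. AHNAK2 fell by 1.87 (0.000708) on 22 UMIs. The others among the 10 were SETBP1, BEND3, PODXL2, HOXB4, RNF125 and TMEM17, whose calls were lost without library 6 (adjusted p between 0.0677 and 0.0905), and PPARGC1B, whose call was lost without library 7 (0.0552). HOXB4 lost its call also without library 7 (0.0837) or library 8 (0.0624).

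The strength of the chemokine signal among chemokine-high cells was looked at after the data had been seen. The 51 cells with 5 or more chemokine UMIs and the 28 with 1 to 4 were each set against the same chemokine-zero cells, so the ratios share their controls and are given side by side only. The weaker cells were also shallower, with a median of 13334.5 UMIs against 35499. The rule favors this difference: the score divides by a cell's UMIs, so few chemokine UMIs reach the threshold only below a certain depth. NFKBIA had a log2 ratio of 3.24 in the stronger and 2.69 in the weaker cells, and TNFAIP3 3.04 and 2.61. NFKB1 had 1.87 and 0.93, IRF1 2.02 and 0.87, IL23A 1.86 and 0.71, and IL32 1.57 and -0.11. For FOS (2.62 and 2.68), EGR4 (2.66 and 3.01), HES1 (1.73 and 2.15) and SNAI2 (1.23 and 1.47) the weaker cells had the larger ratio. BTG2, also an immediate early gene, had 3.43 and 2.47, and the NF-kB list genes BCL3 and ZC3H12A had 2.88 and 2.50 and 1.94 and 1.77. The median of the NF-kB list was 1.98 in the stronger and 0.95 in the weaker cells, and that of the immediate early list 1.53 and 1.11. Of the NF-kB list 21 of 24 and 11 of 22 genes were called higher, and of the immediate early list 31 of 34 and 21 of 33. Over all genes it was 949 of 9909 and 150 of 9316. In library 7 the weaker cells were 4 with 37853 UMIs, against 17 stronger cells with 718985. Fewer cells and UMIs leave fewer genes to pass, and their part in these counts was not tested.

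**Figure D4:**
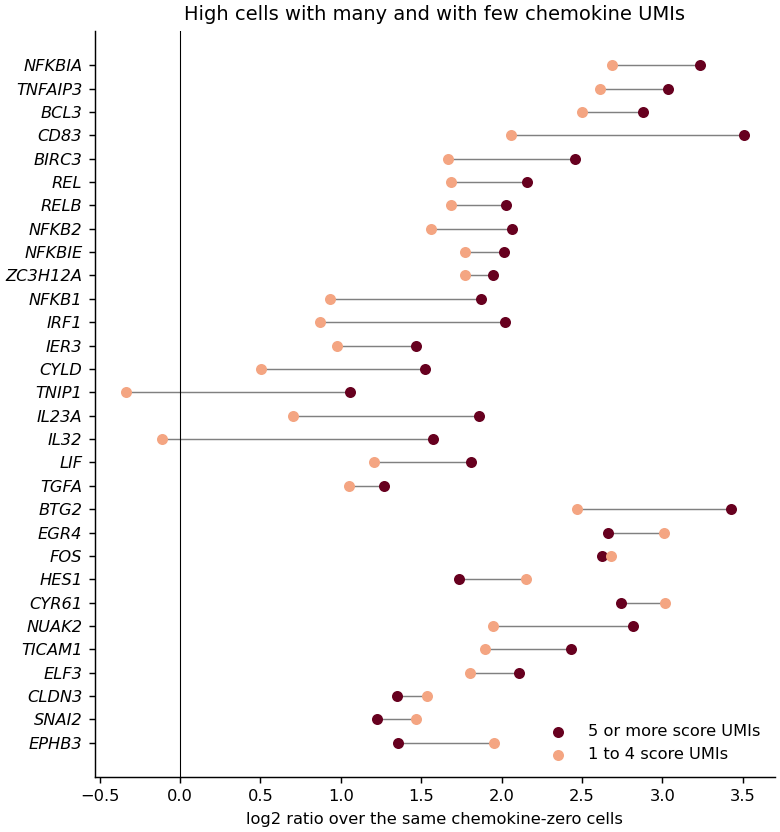
Log2 ratio over the same chemokine-zero cells for chemokine-high cells with 5 or more chemokine UMIs (dark) and with 1 to 4 (light), for 30 genes. NFKB1, IRF1 and the immediate early gene BTG2 lie farther right in the cells with more chemokine UMIs, and FOS and EGR4 do not. For ZC3H12A of the NF-kB list the 2 points lie close together.

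The narrow NF-kB letters were also counted over the promoters of the tested genes, of which 8236 of 10135 matched the table by symbol or older symbol. GGAATTTCC was present in 24 of them (0.291%), in 7 of 912 higher genes (0.768%), in 0 of 811 lower genes and in 4 of 21 genes of the NF-kB list, namely NFKB1, NFKBIA, NFKBIB and REL. The other higher genes with it were MSANTD3, OPTN, TWISTNB and TNFRSF9. GGGNNNNNCC was in 66.9% of higher and 65.4% of lower genes, and TGANTCA in 4.82% and 2.84%. These shares carry no test.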

How the data were processed

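The authors counted UMIs per gene and well of SORT-seq libraries and deposited raw counts. They took barcode and UMI from read 1 and aligned read 2 to the human transcriptome with BWA, and the labels name build hg38. The sources used here give no versions and no strand setting for the counting, which leaves overlapping and antisense genes uncertain. Genes are given by symbol and chromosome.

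Spike-ins were left out of totals. Cells needed more than 2000 genes and under 25% mitochondrial UMIs. Under the genes of the authors' code 533 cells passed. Wells were filled with single cells by sorting, and no doublet caller was run. Counts were summed per plate and group and tested with edgeR 4.0.16 (R 4.3.3; filterByExpr, TMM, quasi-likelihood test, two-sided, plate as a block because both groups of a plate share it, adjusted p under 0.05); DESeq2 1.42.0 was the alternative. Ratios are log2. Each SE was calculated as the size of the ratio divided by the square root of the test's F. It is therefore approximate, most of all for genes with sums near 0. CPM are scaled by TMM factors. The fit was tested on simulated data. Shares of cells cover counting error only.

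Members and gene lists were chosen with earlier results of these data known. Named genes were the 5 chemokines, the 10 largest and 10 smallest called ratios (same direction on 3 plates, at least 30 UMIs), every tested gene of the NF-kB, cytokine and EGF ligand lists, and up to 3 called genes each way of every other list. EGR1, NR4A1, MYC, FOSL2, ELAVL1, MCL1, RIPK and TRAF genes, MYD88, IKBKB, TNFRSF1A, TFF1, TFF3, CLDN4, KRT8, HSPA5, LDHA, GAPDH, ENO1 and the genes named for their promoter letters were chosen after their values were seen. Promoters are from RefSeq (GRCh38.p14). Alternatives were 21 planned and 3 added after seeing the data. One gene that the rule names is not reported here.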

Additional observations from a re-analysis of the deposited data

How the results depend on the processing

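The counts of 1119 higher and 984 lower genes became 484 and 349 with DESeq2, 519 and 354 after thinning cells to 10000 UMIs before summing, and 220 and 73 when thinned cells also made the score. They were 432 and 288 with zero cells paired by depth, 421 and 190 in low-cycling cells, and 616 and 273 with the top 10% of cells. With all other cells as the zero group 551 genes were lower. Scores from CXCL8 alone gave 378 and 172 and from CCL20 alone 195 and 12. High cells with under 5 chemokine UMIs, chosen after seeing the data, gave 150 and 90. Leaving out 1 library gave 588 to 951 higher and 428 to 745 lower genes, and 1 to 47 and 0 to 4 among middle cells. Without the replicate block, which pairs the groups of a plate, the counts were 1030 and 836. The causes were not tested, beyond the fewer genes or cells that thinning, pairing and leaving out a library imply.

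Of 136 named genes 126 were called, and 104 of these lost their call, with the same direction, under at least 1 of the 24 alternatives. This was so for 73 genes with CCL20 alone as the score, 60 with CXCL8 alone, 54 with thinned scores, 44 with zero cells paired by depth, 40 in low-cycling cells, 37 without library 6 and 31 with DESeq2. With depth pairs the genes that lost their call included AHNAK2, CYR61, DKK1, EPCAM, HLA-C, IL32, KRT18, KRT19, THBS1 and VIM, and in low-cycling cells BIRC2, DUSP5, EPCAM, FTH1, HLA-C, IFIH1, IRF7, KRT18, KRT19, PMAIP1, TGFA and VIM. In all, 2413 of 3103 values kept their direction and their side of the threshold, and 23 genes did so throughout. Signs changed somewhere for 22 genes, and 0 of those values passed the test there. In low-cycling cells these were APCDD1 0.081, ASCL2 0.025, EREG -0.80, LAMA3 -0.16 and TNIP2 -0.68. With thinned scores they were AREG 0.29, CD44 0.21 and SOD2 0.11, and with thinned sums HLA-E -0.0083. With CXCL8 alone they were AREG 0.24, AXIN2 -0.031, CCND1 -0.016, HES5 -0.69 and SOD2 0.072. With CCL20 alone they were HSPA8 0.018, SOD2 0.17, TNFRSF1B 0.082 and TNIP2 -0.30. In high cells with under 5 UMIs they included CDKN1A -0.18, EREG -1.94, HBEGF -0.23, HLA-E -0.43, IL32 -0.11, MIF 0.33, RELA -0.10, TNIP1 -0.34 and TNIP2 -1.62. AREG was 0.0018 without the block, 0.022 against all other cells and 0.026 in high cells with 5 or more UMIs, and SOD2 was 0.0083 with the top 10%. Leaving out 1 library gave AREG between -0.47 and 0.28, HBEGF between -0.027 and 1.24, and PLAU between -1.83 and 0.024. Depth limits rare genes most: the chemokine-high sums were the smaller ones in every plate, and 3 plates leave few degrees of freedom.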
